A study of Saccharomyces cerevisiae with 3 samples.

Results

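The 6 genes described here encode the peroxiredoxins of Saccharomyces cerevisiae, TSA1, TSA2, AHP1, PRX1 and DOT5, and the sulfiredoxin SRX1. They were taken by gene symbol from the platform annotation of the array, and all 6 were found among the 5539 genes measured, each on 2 spots, so that they account for 12 of 13056 spots. Each of 3 arrays of 2 colours set RNA of the YAP1 mutant directly against wild-type RNA. Both strains had been in 1.0 mM As(III), that is arsenite, for 1 h, and no unexposed cells enter the comparison. The series title calls the mutant a yap1 deletion. Mutant RNA carried Cy5 and wild-type RNA Cy3 on every array, so dye and genotype cannot be told apart. The labels give neither strain background nor the number of clones, and do not say whether the replicates were separate cultures. The p-values thus rest only on the spread between these 3 hybridisations, partly or wholly pooled over genes.

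Peroxiredoxins are abundant enzymes that reduce hydrogen peroxide and organic hydroperoxides through a reactive cysteine, which thioredoxin, or glutathione for the mitochondrial member, then reduces again. When that cysteine is oxidised too far, the enzyme loses its peroxidase activity, and sulfiredoxin restores it at the cost of ATP. In yeast many genes of this system are known targets of Yap1, a bZIP transcription factor that gathers in the nucleus when its cysteines are oxidised by peroxide or bound by thiol-reactive agents such as arsenite. The comparison asks which of these transcripts depend on YAP1 while cells are exposed to arsenite.

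Ratios are log2 of mutant over wild type. The deposited table does not state the direction. Mutant over wild type is the likely one, given how the titles name the strains and which dye each RNA carried, and all directions below depend on it. The deposited ratios had medians of -0.52, -0.85 and -0.55 on replicates 1, 2 and 3, and they became more negative in brighter spots. A loess curve of ratio on signal was therefore subtracted within each array, and values are after loess unless called deposited. Each SE and 95% interval is limma's moderated one, from a variance drawn toward that of all genes. From the 3 values of a gene alone the SE was 0.055 for TSA1, 0.143 for TSA2 and 0.125 for AHP1. It was 0.108 for PRX1, 0.274 for DOT5 and 0.118 for SRX1. YAP1 itself, on the same scale, had -0.33, -1.21 and -1.05 on replicates 1, 2 and 3. Its mean was -0.87 ± 0.18 (SE, n = 3; limma, adjusted p = 0.0101), which no longer passed without replicate 2 (-0.69, adjusted p = 0.0752), with arrays scaled to 1 spread (0.0690), with normexp (0.0580), with duplicate spots kept apart as technical replicates (0.207) or with the unmoderated statistic (0.544). Its 2 spots differed by 0.71 on replicate 1. Its deposited ratios were lower, at -1.26, -2.34 and -2.23. Whether its spots lie in the deleted part was not tested. Across genes the arrays correlated with r between 0.534 and 0.674, and genes are not independent replicates.

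TSA1, PRX1 and TSA2 fell in the mutant, to between 2.20-fold and 2.44-fold lower levels, whereas AHP1, DOT5 and SRX1 did not pass the test. The size of the decreases depended on the processing: with median centring the log2 means were -1.91 for TSA1 and -1.85 for PRX1, and with normexp background correction that of TSA2 was -2.05, against -1.29, -1.26 and -1.14 after loess. Thus 3 of 6 genes were called lower and 0 higher, at a Benjamini-Hochberg adjusted p under 0.05 by limma over all genes, where 3.39% of genes were called lower and 0.758% higher. The median of the 6 genes was -0.73, against -0.017 over all 5539 genes. The 3 lower genes stood at ranks 54 (TSA1), 56 (PRX1) and 65 (TSA2) from the lowest of all genes.

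**Figure D1:**
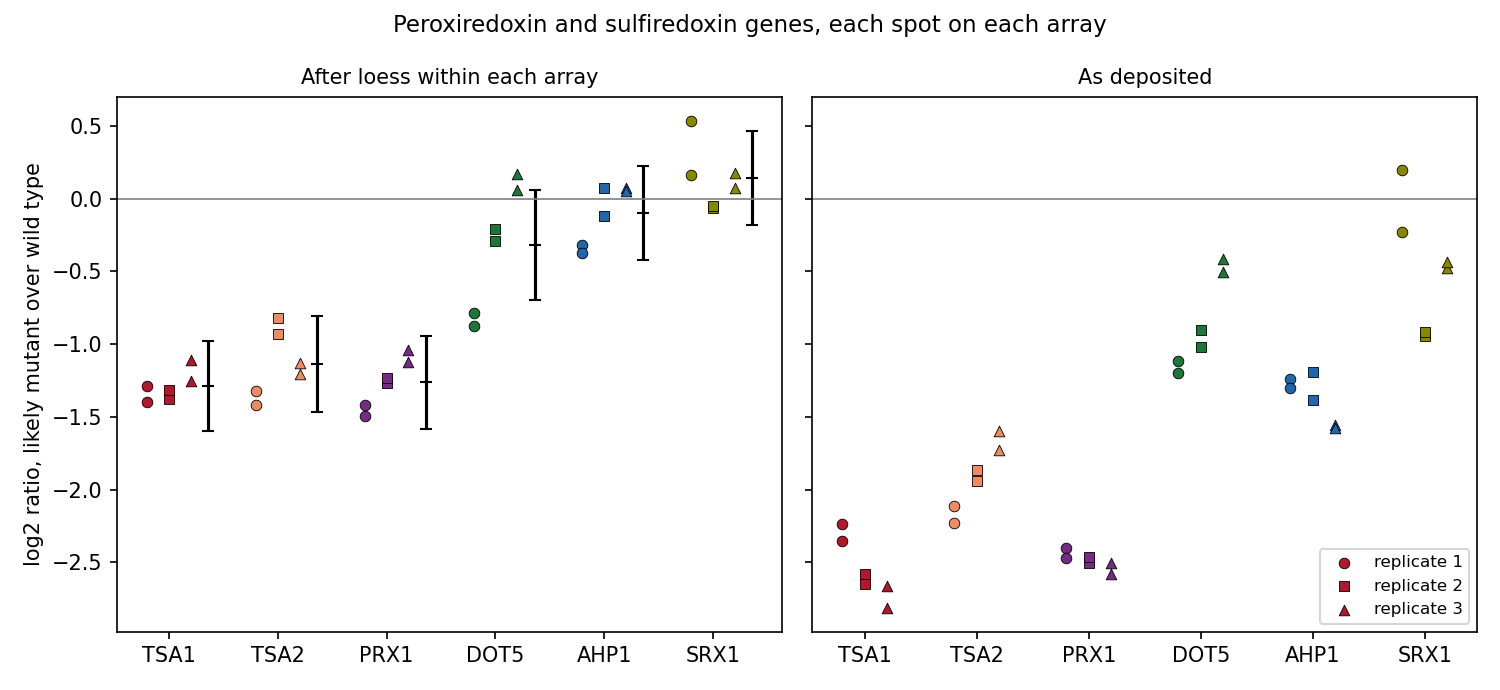
The log2 ratio of each of the 2 spots of each gene is plotted on the vertical axis for the 3 arrays (circle, square and triangle for replicates 1, 2 and 3), after loess on the left and as deposited on the right; black bars on the left are limma's mean with its 95% interval. All 6 values of TSA1, TSA2 and PRX1 lie below -0.8 after loess, and the intervals of DOT5, AHP1 and SRX1 cross 0.

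TSA1 encodes the major cytosolic peroxiredoxin, which also acts as a chaperone after overoxidation. Its ratios were -1.34, -1.35 and -1.18 on replicates 1, 2 and 3. After loess the 3 arrays lay within 0.17 of each other, the narrowest range of the 6 genes. That rank depends on the processing, since the deposited ratios of PRX1 and AHP1 lay closer together than those of TSA1. The mean of TSA1 after loess was -1.29 ± 0.15 (SE, n = 3), with a 95% interval from -1.60 to -0.98 (limma, adjusted p = 4.50e-05). The deposited ratios, -2.29, -2.61 and -2.74, were lower still, because the curve ran at -0.95, -1.27 and -1.56 at the brightness of these spots. Only 102, 113 and 89 of 13056 spots were brighter on the 3 arrays, so few spots fix the curve for TSA1. In recovered channel signals the first spot read 7045 in the mutant channel against 36001 in the wild-type channel on replicate 1, 4957 against 31027 on replicate 2 and 3966 against 27817 on replicate 3. Both channels were thus far above the 5th percentiles of their arrays, which lay between 367 and 1021.

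TSA2 encodes a second cytosolic peroxiredoxin, the close paralog of TSA1. It had -1.37, -0.87 and -1.17 on the 3 arrays, so replicate 2 showed the smallest decrease, yet all 6 spot values were negative. The mean of -1.14 ± 0.15 (SE, n = 3) had a 95% interval from -1.47 to -0.81 (limma, adjusted p = 2.59e-04). Its spots were dimmer than those of TSA1, with wild-type signals from 1394 to 3677 and mutant signals from 462 to 1008. The mutant signals recovered on replicate 3, 476 and 462, lay below the 5th percentile of 522 of that channel. These signals on replicate 3 rest on inferred common factors of 7 and 2, and 55.5% of spots there were brighter than TSA2, against 16.3% and 17.4% on replicates 1 and 2, so the factors may have been set too low. TSA1 and TSA2 are closely similar in sequence, and the TSA2 spots may also have bound TSA1 transcript. How much this added to the TSA2 decrease was not tested. On each array TSA1 minus TSA2 was 0.028, -0.47 and -0.011, with a mean of -0.15 ± 0.28 (SD, n = 3), so the paralogs differed by less than the spread between arrays. On the deposited scale the same differences were -0.12, -0.71 and -1.08, because the curve differs between bright and dimmer spots. With normexp before loess the order turned, at -1.40 for TSA1 and -2.05 for TSA2.

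PRX1 encodes the mitochondrial peroxiredoxin, whose single reactive cysteine is reduced with the help of glutathione and of mitochondrial thioredoxin reductase. Its ratios of -1.45, -1.25 and -1.08 gave a mean of -1.26 ± 0.15 (SE, n = 3), with a 95% interval from -1.58 to -0.94 (limma, adjusted p = 7.53e-05). The deposited ratios of PRX1, -2.43, -2.48 and -2.54, lay close together on the 3 arrays. Wild-type signals of 10565 to 15847 stood against mutant signals of 1792 to 3005. PRX1 lay beside TSA1 on every array, with TSA1 minus PRX1 at 0.11, -0.10 and -0.10. The decreases of the mitochondrial and the major cytosolic enzyme thus differed by less than the spread between arrays, at -0.026 ± 0.12 (SD, n = 3).

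AHP1 encodes an alkyl hydroperoxide reductase of the cytosol, a peroxiredoxin of another subfamily that prefers organic peroxides. It had -0.34, -0.019 and 0.063 after loess, with 3 of 6 spot values negative. The mean was -0.10 ± 0.15 (SE, n = 3), with a 95% interval from -0.42 to 0.22 (limma, adjusted p = 0.748). This value rests on the curve. The deposited ratios of AHP1 were -1.27, -1.29 and -1.56. When the arrays were centred on their medians instead, its mean of -0.73 passed as lower (limma, adjusted p = 1.64e-04), in a fit that called 17.8% of all genes lower. That fit gave all 6 genes the same SE, 0.167, so its p-value does not rest on the spread of AHP1 itself. On the deposited scale, where 75.7% of all genes were called lower, AHP1 passed as well. AHP1 was among the brightest features, with 50, 32 and 29 spots brighter on the 3 arrays, so few spots fix the curve there. Its wild-type signals, 42579 to 56723, came near the ceiling of 65535 of a 16-bit scan. At the measured mutant signals this ceiling allowed no deposited ratio below -1.79, -1.50 and -1.85, where -1.27, -1.29 and -1.56 were measured. How far compression at the ceiling raised the ratio of AHP1 was not tested.

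AHP1 minus PRX1 was 1.11, 1.23 and 1.15 on replicates 1, 2 and 3 after loess, and 1.16, 1.19 and 0.98 in deposited ratios. AHP1 minus TSA1 was 0.99, 1.33 and 1.24 after loess, and 1.02, 1.32 and 1.17 as deposited. At its measured mutant signals the ceiling allowed AHP1 no deposited ratio as low as those of TSA1 and PRX1 on any array. That limit follows from the mutant signals and would lie lower with lower mutant signals, so it cannot decide how to read the sign. The mean wild-type signals of AHP1 were 70.0%, 86.2% and 82.3% of the ceiling on replicates 1, 2 and 3. The likeness of the scales carries no information, since the curve had nearly the same value for AHP1 (-0.93, -1.27 and -1.63) as for TSA1. How much of the differences the ceiling set was not tested.

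**Figure D2:**
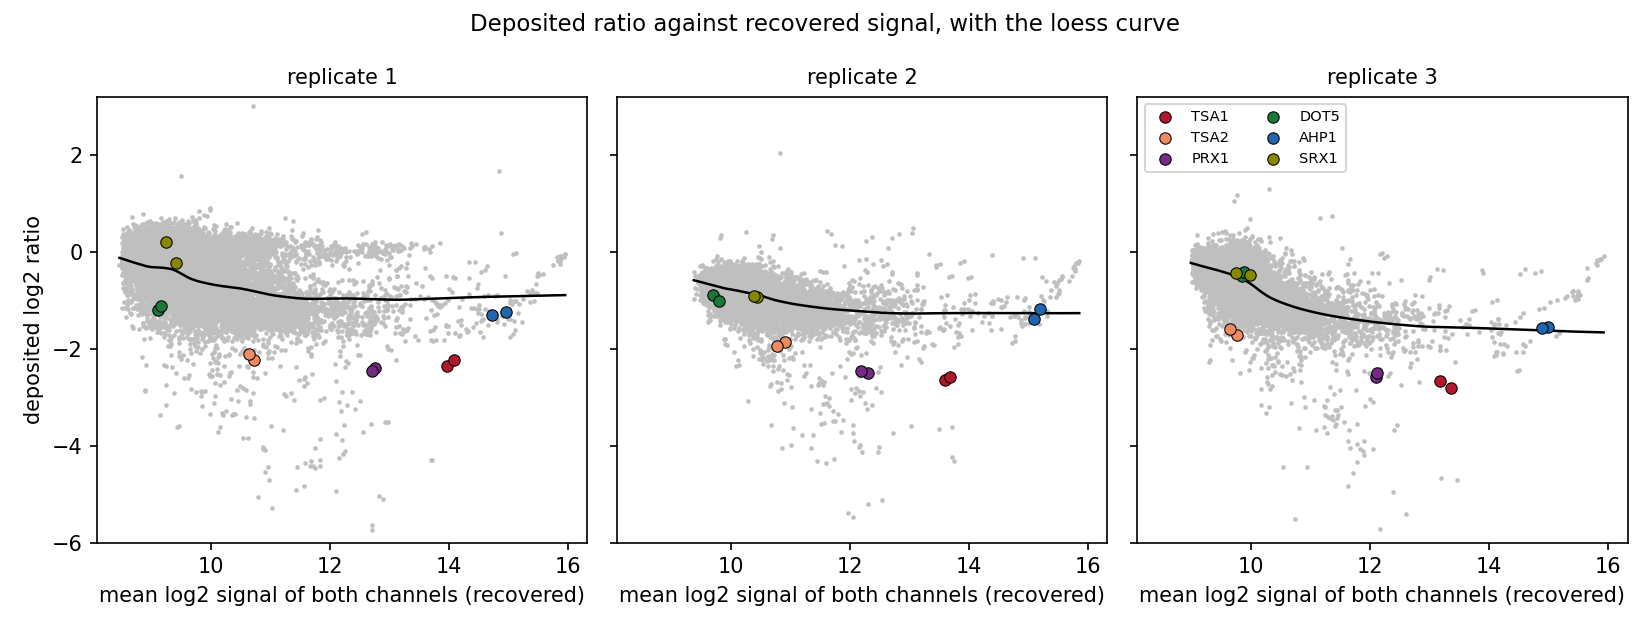
Each panel shows 1 array, with the mean log2 signal of both channels, recovered from the ratios, on the horizontal axis and the deposited log2 ratio on the vertical axis; grey points are all 13056 spots, the line is the loess curve and coloured points are the 2 spots of each gene. TSA1, PRX1 and TSA2 lie below the curve on all 3 arrays, and AHP1 lies at the bright end, close to the curve.

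DOT5 encodes the nuclear thiol peroxidase, first named for its effect on telomeric silencing. Its values were spread most, at -0.83, -0.25 and 0.11, and replicate 1 decided most of its mean of -0.32 ± 0.18 (SE, n = 3; limma, adjusted p = 0.332). Without replicate 1 the mean was -0.07. The 95% interval ran from -0.70 to 0.06. The spots were dim, with mutant signals of 364 and 387 on replicate 1, against a 5th percentile of 367 for that channel, and 603 to 815 on the other arrays. With normexp the mean was -0.85 and did not pass (adjusted p = 0.201).

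SRX1, the repair enzyme gene, had 0.35, -0.06 and 0.13. The mean of 0.14 ± 0.15 (SE, n = 3) had a 95% interval from -0.18 to 0.46 (limma, adjusted p = 0.627). Its 2 spots on replicate 1 differed by 0.37, the widest duplicate difference of the 6 genes. The mutant signals of 627 to 996 lay near the median of their channel, which was 636, 914 and 714 on the 3 arrays. On replicate 1 the wild-type signals were 562 and 735, below that channel's median of 882 and not far above its 5th percentile of 444. In this fit no background was removed from these signals, and whether any was removed before deposit is not given. The interval therefore does not show that a large decrease was absent. SRX1 is a known Yap1 target under peroxide. No unexposed or peroxide-treated sample enters here, so the files do not show whether arsenite raised SRX1 in the wild type. SRX1 passed in none of the 16 alternatives, and its mean turned negative on the deposited scale alone (-0.47, adjusted p = 0.0575), which is not centred.

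**Figure D3:**
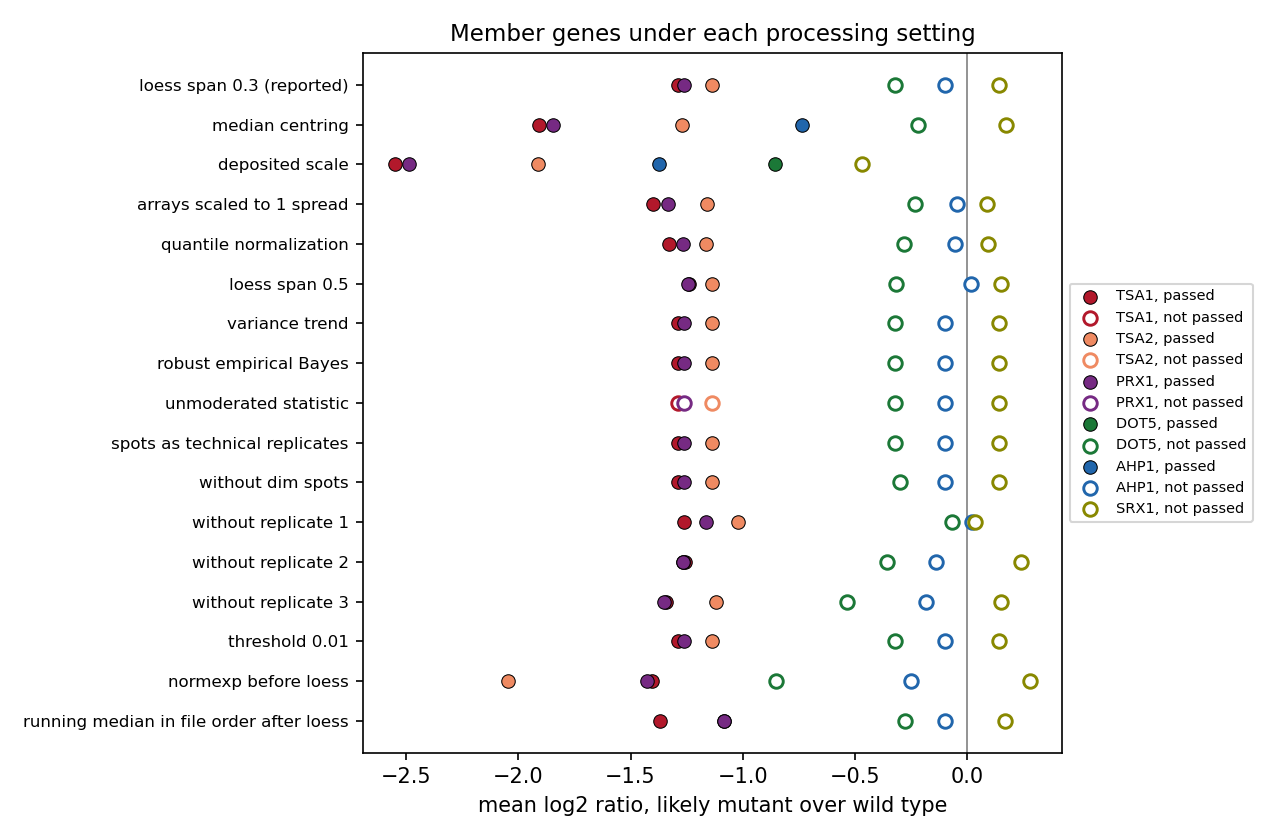
Mean log2 ratios of the 6 genes are plotted on the horizontal axis for each processing setting on the vertical axis; filled points passed limma's test and open points did not. TSA1, TSA2 and PRX1 stay below -1 in every setting and are open only with the unmoderated statistic, whereas AHP1 is filled only with median centring and on the deposited scale.

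Ratios also varied with position in the file. The running median of 201 spots ranged from -0.53 to 0.91 on replicate 1, from -0.31 to 0.49 on replicate 2 and from -0.74 to 0.97 on replicate 3. Around the spots of PRX1, DOT5, AHP1, SRX1 and TSA2 on replicate 1 it was -0.31, -0.23, -0.22, -0.20 and -0.18, and around TSA1 0.01. With this local median subtracted, TSA1 had -1.35, -1.48 and -1.28 and SRX1 0.55, -0.089 and 0.050, both farther apart than before. PRX1 had -1.15, -1.17 and -0.94, TSA2 -1.19, -0.81 and -1.25, DOT5 -0.60, -0.25 and 0.013, and AHP1 -0.12, -0.094 and -0.079. TSA1, TSA2 and PRX1 still passed, with means of -1.37, -1.09 and -1.08, in a fit that called 1.86% of all genes lower.

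Of 9 genes of thioredoxins, glutaredoxins and their reductases, not all of which serve peroxiredoxins, 6 were called lower and 0 higher, with a median of -0.70, where 3.39% of all genes were called lower. With median centring, which called 17.8% of all genes lower, 7 of the 9 were. The largest decreases were those of TRX2, a cytosolic thioredoxin gene (-2.37), TRR1, which encodes cytosolic thioredoxin reductase (-2.29), and GLR1, which encodes glutathione reductase (-2.01), with limma's adjusted p from 2.64e-07 to 3.98e-05. GRX2, a glutaredoxin of cytosol and mitochondria, fell by 1.42, GRX5, the mitochondrial glutaredoxin of iron-sulfur cluster assembly, by 0.70, and TRR2, the mitochondrial thioredoxin reductase, by 0.61 (adjusted p = 0.0469). These 3 calls were less firm: GRX2 was lost without replicate 1 (adjusted p = 0.0512), GRX5 without replicate 2 (0.0507) or with duplicate spots kept apart (0.285), and TRR2 without replicate 1 (0.143) or replicate 3 (0.1996), with normexp (0.0892) or with the running median (0.153). TRX1, the other cytosolic thioredoxin gene (-0.12), the glutaredoxin gene GRX1 (-0.15) and the mitochondrial thioredoxin gene TRX3 (-0.30) did not pass.

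Among 6 other peroxide-removing enzymes GPX2 was the 1 called lower, at -1.43 ± 0.15 (SE; limma, adjusted p = 2.90e-05), and 0 were higher. Over all genes 3.39% were called lower and 0.758% higher. The list had a median of -0.14. GPX2 encodes a glutathione peroxidase-like enzyme. The mitochondrial cytochrome c peroxidase gene CCP1 (-0.40), GPX1 (-0.18), HYR1 (-0.09) and the catalase genes CTT1 (0.0054) and CTA1 (0.047) did not pass. With median centring 4 of the 6 were called lower, against 17.8% of all genes. All 3 genes that make peroxide from superoxide or supply copper for it fell, with a median of -1.36: SOD1 (-2.37), the copper chaperone gene CCS1 (-1.36) and the mitochondrial SOD2 (-1.29). CCS1 did not pass with spots as technical replicates (adjusted p = 0.0730).

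Of 7 genes of peroxide sensing and stress transcription YAP1 was the 1 called lower and 0 were higher, and the median was -0.14. For this list and the others below, the shares over all genes were 3.39% lower and 0.758% higher. HYR1, the peroxidase that passes oxidation on to Yap1, was counted above. YBP1, which encodes a Yap1-binding protein needed for that step, had -0.13, the response regulator gene SKN7 -0.14, the YAP1 paralog CAD1 -0.15, MSN2 -0.22, HSF1 0.031 and MSN4 0.40, none of which passed. Of 5 genes of urmylation, a protein modification for which Ahp1 is a known target, 0 were called and the median was 0.037. UBA4, which encodes the activating enzyme, had the lowest value of these, -0.59 (adjusted p = 0.119), and without replicate 1 it passed as lower (-0.95, adjusted p = 0.0161). It also passed with median centring, as the 1 gene of the 5. Among 5 NADPH sources ALD6, the cytosolic aldehyde dehydrogenase gene, fell by 1.26 and GND1, of the pentose phosphate pathway, by 0.75, whereas IDP2 (-0.38), ZWF1 (-0.16) and SOL3 (-0.019) did not pass, and the median was -0.38. GND1 did not pass without replicate 3 (-0.59, adjusted p = 0.210), with the running median in file order (-0.60, adjusted p = 0.177) or with arrays scaled to 1 spread (adjusted p = 0.0515). With median centring 3 of these 5 were called lower, against 17.8% of all genes. None of 5 chaperone genes that act on aggregates with or beside overoxidised Tsa1 was called: HSP104 had -0.50, SSA2 -0.44, YDJ1 -0.30, HSP42 0.43 and SSA1 0.50, with a median of -0.30. HSP42 passed as higher without replicate 1 (0.59, limma, adjusted p = 0.0496) and with a variance trend (0.0456). SSA1 did so without replicate 3 (0.78, adjusted p = 0.0378), with a loess span of 0.5 (0.63, adjusted p = 0.038) and with a variance trend (0.0131). With median centring HSP42 (-0.14) and SSA1 (-0.13) were negative and did not pass. With median centring 3 of the 5 chaperone genes were called lower, against the same 17.8%.

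**Figure D4:**
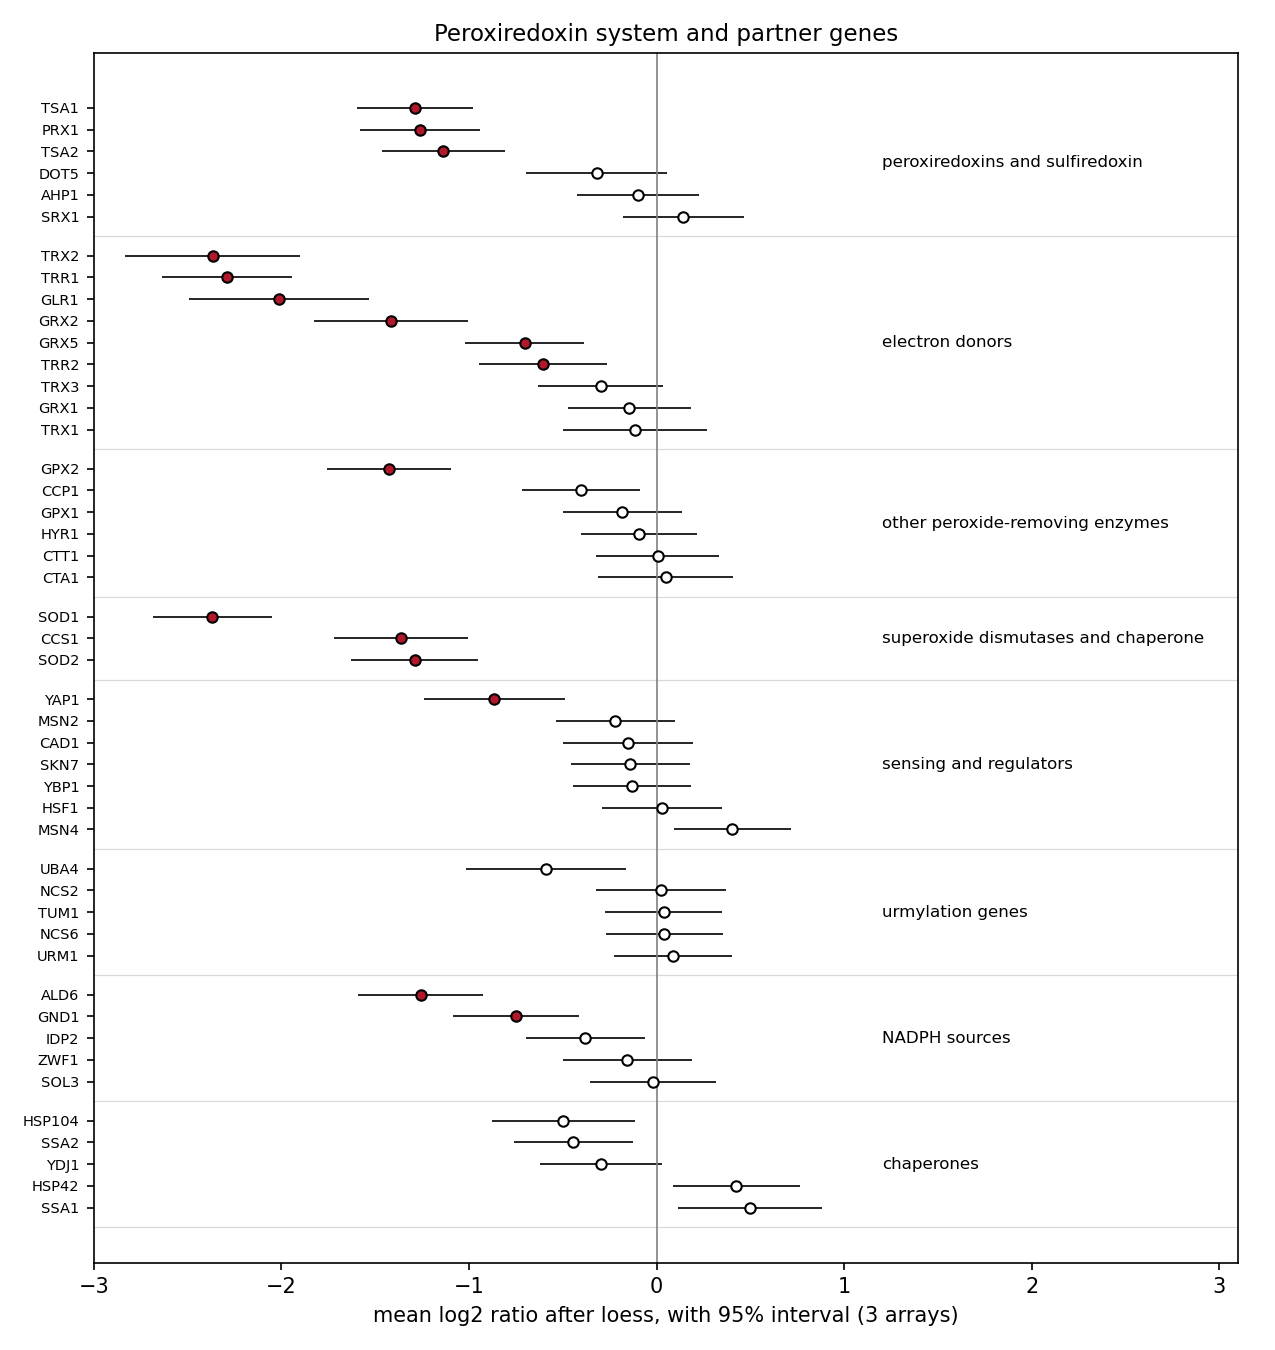
The mean log2 ratio after loess with limma's 95% interval over 3 arrays is plotted on the horizontal axis for the 6 genes and for 40 partner genes in 7 lists; red points were called lower, open points did not pass. TRX2, TRR1, GLR1 and SOD1 lie near or below -2, further out than TSA1, PRX1 and TSA2.

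By Euclidean distance over the 3 arrays, the genes most like TSA1 were YGP1, a secreted glycoprotein gene (distance 0.092, mean -1.24), and PRX1 (0.179). Those most like PRX1 were ALD6 (0.119, mean -1.26) and YGP1 (0.160). Those most like TSA2 were farther away, SPT15, the TATA-binding protein gene (0.226, mean -1.18), and ERO1, the thiol oxidase gene of the endoplasmic reticulum (0.254, mean -1.10). With 3 arrays this likeness reflects mainly the mean ratio.

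The 6 genes lie on 6 chromosomes, TSA1 on XIII, TSA2 on IV, AHP1 on XII, PRX1 on II, DOT5 on IX and SRX1 on XI, per the RefSeq table of the R64 assembly. Of the 12 genes next to them 11 were measured, of which 1 was called lower and 0 higher, against 3.39% and 0.758% of all genes. The neighbour called lower, USA1, a membrane protein gene of the endoplasmic reticulum beside TSA1, had -0.60 (limma, adjusted p = 0.0312). It did not pass when any 1 array was left out (adjusted p = 0.0667, 0.0959 and 0.238 without replicates 1, 2 and 3), with duplicate spots kept apart (0.330) or with the running median (0.0592). YOX1, on the other side of TSA1, had -0.52 (limma, adjusted p = 0.0874). It passed as lower with quantile normalization (0.034), normexp (0.046) and median centring (0.022), and on the deposited scale. KIP1 beside PRX1 had -0.59 without passing (limma, adjusted p = 0.0700) but passed without replicate 2 (-0.75, adjusted p = 0.0420). KIP1 also passed as lower with arrays scaled to 1 spread (0.048), quantile normalization (0.028), a variance trend (0.028), normexp (0.030) and median centring (0.0085), and on the deposited scale. The neighbours of TSA2, PPN1 and GUK1, had -0.18 and 0.016.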

How the data were processed

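The deposited values are log2 ratios of 2 channels, 1 per spot; no step from scan to ratio is given in the sources used here, and per the labels mutant RNA was Cy5. On the linear scale 100% of spots were ratios of whole numbers (relative tolerance 1e-13), from which both channel signals were recovered up to a common factor. The factor was chosen by likeness of duplicate spots and of the same spots on the other arrays, and checked on simulated signals. These were drawn from the recovered signals with the same likeness built in. The check therefore cannot show whether the factors of the real spots are right. A wrong factor matters most for dim spots: with the signals of TSA2 on replicate 3 taken 2 times higher, the mean of TSA2 would be -0.92. Signals on replicate 3 taken 2 times higher or lower would give DOT5 a mean of -0.11 or -0.43, and SRX1 0.34 or 0.024. Only 2 of 6 spot values of DOT5, and likewise of SRX1, had a factor of 1, so their recovered signals are less certain. The alternatives below did not vary the factor. A loess curve (span 0.3, limma 3.58.1, R 4.3.3) was subtracted within each array, spots of a gene were averaged, and means were tested against 0 with limma's moderated statistic, two-sided, Benjamini-Hochberg adjusted over 5539 genes; the step was tested on simulated data. Spots named 1 gene for 11138 and none for 1918, and 5516 genes matched the RefSeq table of R64. The number of arrays limits the precision. The 6 genes, the lists, the rule for named genes (all 6, called list genes and up to 4 others per list, 2 nearest genes per called gene, chromosomal neighbours) and the loess step were chosen with earlier results of these data known. More list genes than the rule allows are named, since the lists are short. Promoter motifs were planned but not analysed here. Alternatives covered normalization, variance model, duplicate spots, dim spots, threshold and each array left out. Python 3.11.15, numpy 2.4.6, pandas 2.3.3 and matplotlib 3.10.9 were used.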

Additional observations from a re-analysis of the deposited data

How the results depend on the processing

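Normexp before loess and the running median in file order were chosen after seeing the data. Of 96 values of the 6 genes under 16 alternatives, 87 kept direction and side of the threshold. TSA1 (-1.29), TSA2 (-1.14) and PRX1 (-1.26) no longer passed with the unmoderated statistic (adjusted p = 0.354, 0.494 and 0.492), which has 2 degrees of freedom and called 0 of the 6 genes and 1 gene in all. AHP1 passed as lower with median centring (-0.73) and on the deposited scale (-1.37), and turned to 0.016 with a loess span of 0.5 and to 0.022 without replicate 1. On the deposited scale, which is not centred, 5 of the 6 genes were called, DOT5 passed (-0.86) and SRX1 turned to -0.47. Leaving out 1 array gave 3 called genes of the 6 each time, with means from -1.34 to -1.26 (TSA1), -1.27 to -1.02 (TSA2), -0.18 to 0.022 (AHP1), -1.35 to -1.17 (PRX1), -0.54 to -0.067 (DOT5) and 0.036 to 0.24 (SRX1). Called genes numbered 230 in all (188 lower, 42 higher), 1221 with median centring (984 and 237), 4192 on the deposited scale (4191 and 1), 410 with quantile normalization, 107 at an adjusted p under 0.01, 121 with the running median and 136 to 234 with 1 array left out, the lowest without replicate 1. The cause of these shifts was not tested. With median centring, without replicate 2 and without replicate 3, limma gave all 6 genes the same SE, 0.167, 0.239 and 0.238. The p-values of those fits rest on a variance pooled over genes, not on the spread of each gene. Each ratio already pairs the strains within an array, so the test is paired by design, and no further replicate block could be fitted to 1 group of ratios. Signals of TSA2, DOT5 and SRX1 were low on at least 1 array, and wild-type signals of AHP1 reached 56723 under a ceiling of 65535. How far dim signal or the ceiling moved these ratios was not tested.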
